A study of Mus musculus with 56 samples.

Results

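Cyp2b9, Cyp2b10, Cyp2b13 and Slc22a26 were followed in liver RNA sequencing counts of 56 mice, as 4 of the 21935 genes in the deposited table, each taken by its gene symbol. The study asked how zalfermin, an analog of the hormone FGF21, and semaglutide, which activates the GLP-1 receptor, alone and together, act on the liver of mice with diet-induced obesity and metabolic dysfunction–associated steatohepatitis (DIO-MASH). Male C57BL/6J mice on the AMLN diet (high in fructose, fat and cholesterol) received vehicle, low-dose zalfermin (0.05 mg/kg), high-dose zalfermin (0.2 mg/kg), low-dose semaglutide (3 µg/kg), high-dose semaglutide (120 µg/kg) or the low-dose combination (0.05 mg/kg zalfermin with 3 µg/kg semaglutide), injected under the skin each day for 8 weeks. The chow group received vehicle alone, and each of the 7 groups holds 8 mice. The series' own design text, unlike the study's methods, describes the combination as both drugs at their high doses, so its doses rest on the methods. The model is a diet, with no transgene, and mice on it were also admitted by the steatosis and fibrosis of a liver biopsy, so chow vehicle and DIO-MASH vehicle differ in more than diet. The genes had been selected on group levels: Cyp2b9, Cyp2b13 and Slc22a26 were among the largest rises of the combination over DIO-MASH vehicle, Slc22a26 also of high-dose zalfermin, and Cyp2b10 of chow vehicle. Differences that involve DIO-MASH vehicle, chow vehicle or the combination are therefore given as descriptions without a test, and so are those of Slc22a26 with high-dose zalfermin.

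Cyp2b9, Cyp2b10 and Cyp2b13 encode cytochrome P450 enzymes of the 2B subfamily, which oxidize drugs, steroids and fatty acids in the endoplasmic reticulum of hepatocytes. Cyp2b10 is the classic mouse gene switched on by the constitutive androstane receptor (CAR, gene Nr1i3), the nuclear receptor through which phenobarbital acts, and by its relative the pregnane X receptor (PXR, gene Nr1i2). Cyp2b9 and Cyp2b13 are known from mouse liver as female-biased genes, which the pulsatile growth hormone pattern of males keeps low through the transcription factor STAT5b. Slc22a26 encodes a member of the organic anion transporter family, which carries small organic anions across the plasma membrane.

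The 3 Cyp2b genes lie on the plus strand of chromosome 7 in GRCm38 and have 9 exons each. Cyp2b10 (ENSMUSG00000030483) spans 25897620 to 25926624, Cyp2b13 (ENSMUSG00000040583) spans 26061497 to 26096197, and Cyp2b9 (ENSMUSG00000040660) spans 26173411 to 26210661 in the GENCODE M21 annotation. Slc22a26 (ENSMUSG00000053303) lies on the minus strand of chromosome 19, from 7781041 to 7802667, and its longest transcript has 10 exons. The related genes Slc22a27, Slc22a28, Slc22a29 and Slc22a30 lie next to it, between 7864388 and 8405111 on the same strand. The transcripts of Cyp2b9 and Cyp2b13 were identical at 91.9% of 1848 aligned bases, those of Cyp2b10 and Cyp2b13 at 89.3%, and those of Cyp2b9 and Cyp2b10 at 88.2%. Slc22a26 was identical to Slc22a27 to Slc22a30 at 75.5% to 78.9% of aligned bases.

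This likeness bears on how reads can be placed, since sequencing used 75 cycles. Of the 1802 stretches of 75 bases in the Cyp2b9 transcript, 93 (5.16%) also occurred in a transcript of another gene, all 93 of them in Cyp2b13. Cyp2b13 shared 295 of 1801 stretches (16.4%), of which 201 also occurred in the pseudogene Gm45225, 93 in Cyp2b9, 37 in Cyp2b10 and 8 in Cyp2b23, with some in more than 1 of these. Cyp2b10 shared 58 of 1842 (3.15%). Slc22a26 shared 83 of 2780 (2.99%), all with the pseudogene AC115715.1 and none with another Slc22a gene. How reads that fit several genes were counted is not given in the sources used here, so low counts of Cyp2b13 in particular are uncertain.

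The promoter sequences of the 4 genes are shown because those of Cyp2b9 and Cyp2b13 are nearly alike, whereas that of Cyp2b10 differs from them. They are the RefSeq sequences (GRCm38.p6) from 250 bases before to 50 bases after the annotated start, 5′ to 3′ on the strand of the gene, at chr7:26173159-26173458 (Cyp2b9), chr7:26061245-26061544 (Cyp2b13), chr7:25897408-25897707 (Cyp2b10) and chr19:7802618-7802917 (Slc22a26, minus strand). Capitals mark matches to 3 short motifs searched on both strands, chosen after the sequences were seen. The motifs are TTCNNNGAA, the palindrome that STAT5 binds, AGGTCA, a half-site of nuclear receptors such as CAR, and TTGCNNAA, a core of C/EBP sites, and their matches do not overlap here.
Cyp2b9: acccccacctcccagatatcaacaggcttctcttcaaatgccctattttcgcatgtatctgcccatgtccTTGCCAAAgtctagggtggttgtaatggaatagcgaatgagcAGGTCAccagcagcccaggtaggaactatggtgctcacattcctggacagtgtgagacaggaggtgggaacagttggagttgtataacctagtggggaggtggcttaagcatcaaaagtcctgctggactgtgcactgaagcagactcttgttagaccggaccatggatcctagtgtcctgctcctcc
Cyp2b13: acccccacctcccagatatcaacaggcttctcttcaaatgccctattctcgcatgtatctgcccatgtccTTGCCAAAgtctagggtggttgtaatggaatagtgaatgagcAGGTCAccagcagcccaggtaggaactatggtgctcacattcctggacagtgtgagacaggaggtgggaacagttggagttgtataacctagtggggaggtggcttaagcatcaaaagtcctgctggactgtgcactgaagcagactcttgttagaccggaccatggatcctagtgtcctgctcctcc
Cyp2b10: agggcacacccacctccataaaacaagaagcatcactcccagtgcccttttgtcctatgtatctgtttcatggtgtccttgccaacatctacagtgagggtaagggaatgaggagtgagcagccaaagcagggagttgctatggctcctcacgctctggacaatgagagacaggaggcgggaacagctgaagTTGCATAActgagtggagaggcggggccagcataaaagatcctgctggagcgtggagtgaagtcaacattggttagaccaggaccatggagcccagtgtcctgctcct
Slc22a26: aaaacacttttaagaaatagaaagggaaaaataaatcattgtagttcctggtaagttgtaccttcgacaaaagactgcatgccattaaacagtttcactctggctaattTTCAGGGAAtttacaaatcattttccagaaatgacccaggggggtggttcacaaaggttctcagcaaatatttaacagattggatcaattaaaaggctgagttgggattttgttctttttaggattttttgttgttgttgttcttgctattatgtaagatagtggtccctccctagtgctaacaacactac
The Cyp2b9 and Cyp2b13 promoters were identical at 298 of 300 bases (99.3%). They differed by T48C and C104T, with the Cyp2b9 base first and positions counted from 1 at the 5′ end of the window, that is 203 and 147 bases before the start. Each held 1 AGGTCA match at 138 bases and 1 TTGCNNAA match at 180 bases before the start. The Cyp2b10 promoter was identical to each of these at 80.1% of 286 aligned bases, and held 1 TTGCNNAA match at 58 bases before the start and no AGGTCA. The Slc22a26 promoter held 1 TTCNNNGAA match at 141 bases before the start and neither of the other motifs. Among 32851 RefSeq promoters of the same length, 8.30% held TTCNNNGAA, 16.3% held AGGTCA and 10.8% held TTGCNNAA. The matches are letters in a window and were not tested as binding sites. Whether promoter likeness bears on the levels of the genes was not tested.

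Total counts ranged from 5228187 to 20885786 reads per mouse, with a median of 12206788, so 1 read equalled a level of 0.0819 CPM (read counts scaled to a common library total) at the median depth before TMM scaling. The 4 genes were among the 14105 genes kept for the tests, for which at least 3 mice had at least 5 reads. Mouse numbers form 4 runs in the labels, 3 of which hold mice of every group, and the labels do not say what a run marks. In the second of these 3 runs chow vehicle has only 1 mouse, mouse 3, whose library is the smallest (5228187 reads). A few libraries stood apart in ways that touch these genes. Chow mouse 8 carried reads of all 7 small intestine markers, which summed to 2140 CPM against 18.5 to 43.1 CPM in the other 7 chow mice and at most 165 CPM in any other mouse. Its level of Alpi, an intestinal alkaline phosphatase, was 1260 CPM, while Alpi was at 0 in the other chow mice, and its cholangiocyte markers summed to 256 CPM against 7.22 to 15 CPM. Chow mouse 2 had the lowest level of the 8 chow mice in 19 of 23 male-biased liver genes and the highest in 8 of 22 female-biased ones and all 5 Kupffer cell markers, while its Y-linked Ddx3y, at 95.6 CPM, was within the range of all mice (46.1 to 96.1 CPM). The study left 1 low-dose semaglutide mouse out of its analysis, which the table does not mark, and all 8 were kept here. Low-dose semaglutide mouse 6 held the highest Cyp2b9 and Slc22a26 of its group, and its Cyp2b13, at 2.46 CPM, was level with that of mouse 7. Whether mouse 6 is the mouse left out by the study is not known.

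As the background to counts of genes in each comparison, 26.5% of the 14105 genes passed the threshold (edgeR, Benjamini-Hochberg adjusted p under 0.05) as higher and 28.9% as lower in chow vehicle than in DIO-MASH vehicle, and 10% as higher and 10.9% as lower in the combination. For high-dose zalfermin the shares were 8.54% and 8.68%, for high-dose semaglutide 1.43% and 1%, for low-dose zalfermin 0.418% and 0.0496%, and for low-dose semaglutide 0% in both directions. The low-dose semaglutide count of 0 came from edgeR, which gave 1222 genes at an unadjusted p under 0.05, and DESeq2 called 32 genes.

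Cyp2b9 was the most abundant of the 4 genes under treatment and rose most in the low-dose combination and high-dose zalfermin groups. In DIO-MASH vehicle mice the level of Cyp2b9 ran from 0.691 to 33.5 CPM with a median of 4.27 CPM, and in chow vehicle mice from 0 to 34.8 CPM with a median of 4.86 CPM. The low-dose combination spanned 51.8 to 351 CPM (mean 140 ± 105, SD, n = 8), so all 8 mice lay above the highest DIO-MASH vehicle mouse. High-dose zalfermin spanned 12.4 to 199 CPM (82.7 ± 71.2), and 5 of its 8 mice lay above that mouse. Low-dose zalfermin (3.05 to 24.6 CPM, mean 10.1 ± 6.56) stayed within the range of DIO-MASH vehicle. Low-dose semaglutide reached 75.9 CPM in mouse 6 and had a mean of 21.6 ± 25.1 CPM, and high-dose semaglutide reached 128 CPM in mouse 1, 4.84 times the next mouse of its group.

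On the log2 scale the combination exceeded DIO-MASH vehicle by 4.02 (SE 0.78) for Cyp2b9, a 16.2-fold difference, and high-dose zalfermin by 3.24 (SE 0.76). Within the 3 shared runs of sample numbers the combination difference was 3.20, 5.14 and 4.26 in log2 CPM, and that of high-dose zalfermin 2.74, 4.36 and 2.44. A single vehicle mouse weighed on these values, because DIO-MASH vehicle mouse 1 held 33.5 CPM and the next mouse 13.2 CPM. Without it the differences became 4.87 and 4.09, and that of high-dose semaglutide went from 1.56 to 2.40. Without high-dose semaglutide mouse 1 the latter was 0.33, and the low-dose semaglutide difference was 1.28 with mouse 6 and 0.65 without it. Chow vehicle differed from DIO-MASH vehicle by −0.07 (SE 0.78) in the pooled fit and by −1.34, −4.07 and −1.45 in log2 CPM within the runs. The −4.07 rests on 1 chow mouse, mouse 3, which had 0 reads, so its size depends on the prior count. The 3 runs leave out chow mice 7 (9.7 CPM) and 8 (34.8 CPM) and DIO-MASH vehicle mouse 8 (0.691 CPM, the lowest of its group). Without chow mouse 8 the fitted difference was −0.91. In order of median level the groups ran from the combination (96.7 CPM) through high-dose zalfermin (51), low-dose semaglutide (11.4), high-dose semaglutide (10.6), low-dose zalfermin (8.57) and chow vehicle (4.86) to DIO-MASH vehicle (4.27), and every neighbouring pair overlapped.

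**Figure D1:**
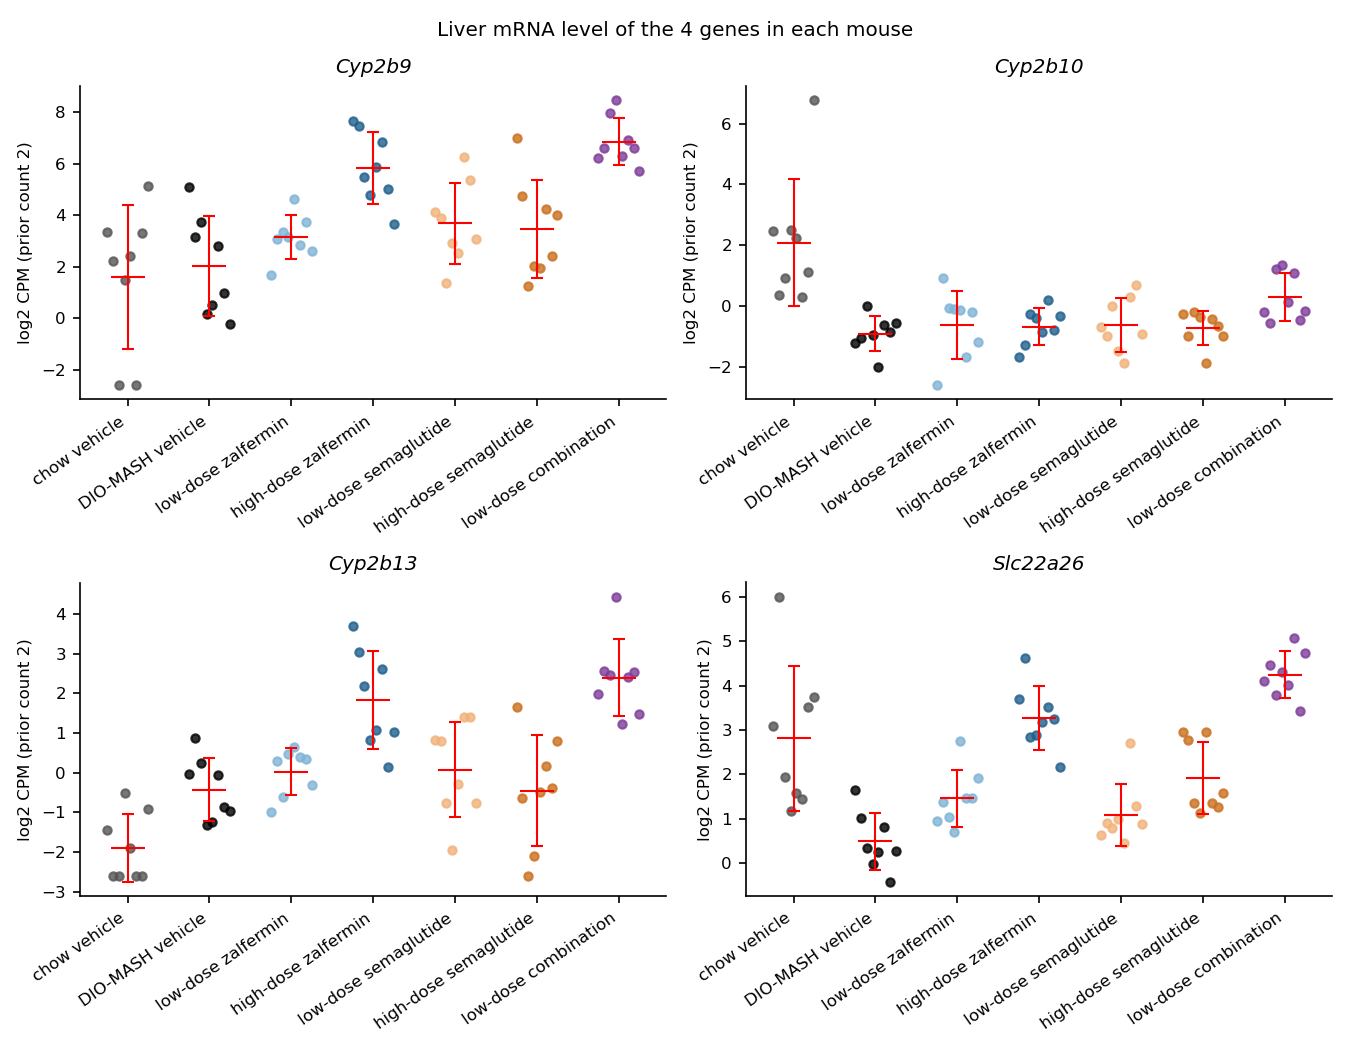
Level of each gene in each mouse as log2 CPM with a prior count of 2, by group. Each point is 1 mouse, the red bar is the group mean and the whiskers are 1 SD (n = 8). The 8 combination mice lie above all DIO-MASH vehicle mice for Cyp2b9, Cyp2b13 and Slc22a26, and chow mouse 8 lies apart for Cyp2b10.

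Cyp2b13 counts rose with those of Cyp2b9 in the combination and high-dose zalfermin groups, at a far lower level, and were lowest in chow-fed mice. The part of Cyp2b9 reads in this rise was not tested. DIO-MASH vehicle mice held 2 to 26 reads each, that is 0.235 to 1.66 CPM with a median of 0.594 CPM. All 8 combination mice (2.17 to 21.5 CPM, median 5.30) lay above this range, mouse 4 with 21.5 CPM being 3.72 times the next. Of the high-dose zalfermin mice (0.936 to 12.8 CPM, median 3.14), 6 of 8 lay above it. Low-dose zalfermin (0.339 to 1.39 CPM) stayed within the vehicle range, and both semaglutide groups overlapped it on either side. Chow vehicle mice had 12 reads in all, none in 4 of the 8 mice, and 6 of the 8 lay below the lowest DIO-MASH vehicle mouse. A count of 0 allows up to 3 reads, or 0.226 to 0.652 CPM in these 4 libraries, the upper end of which lies within the DIO-MASH vehicle range. The fitted difference from DIO-MASH vehicle was 3.20 (SE 0.57) on the log2 scale for the combination, 2.68 (SE 0.57) for high-dose zalfermin and −2.12 (SE 0.83) for chow vehicle. Within the runs the differences in log2 CPM were 2.46, 2.61 and 2.47 for the combination, 2.56, 2.29 and 1.04 for high-dose zalfermin, and −2.43, −1.82 and −1.21 for chow vehicle.

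Slc22a26 was raised in the combination and high-dose zalfermin groups and also in chow-fed mice. DIO-MASH vehicle mice lay between 0.582 and 2.95 CPM (median 1.07). All 8 combination mice (10.6 to 33.7 CPM, mean 19.9 ± 7.47) and all 8 high-dose zalfermin mice (4.33 to 24.4 CPM, mean 10.7 ± 6.14) lay above them. Low-dose zalfermin had a median of 2.51 CPM, high-dose semaglutide 2.61 CPM and low-dose semaglutide 1.70 CPM, with 2, 3 and 1 mice above the vehicle range. The single low-dose semaglutide mouse above it was mouse 6, at 6.33 CPM against 2.28 CPM for the next. Chow vehicle mice spanned 2.07 to 64.1 CPM around a median of 6 CPM, and the highest was mouse 2, the animal with low male-biased genes. Fitted differences from DIO-MASH vehicle were 3.80 (SE 0.51) for the combination, 2.90 (SE 0.51) for high-dose zalfermin and 3.27 (SE 0.51) for chow vehicle on the log2 scale, and the last became 2.13 without chow mouse 2. Within the runs the combination difference was 2.85, 4.36 and 3.89 in log2 CPM, that of high-dose zalfermin 2.39, 3.01 and 2.51, and that of chow vehicle 3.22, 1.76 and 1.19. Summed with its 4 neighbours Slc22a27 to Slc22a30, the differences were 0.88, 0.66 and 1.05 on the log2 scale. This sum does not test the placement of reads, because Slc22a26 shared no stretch of read length with another Slc22a gene. By construction Slc22a26 is a minor part of the sum. In DIO-MASH vehicle its mean was 1.37 CPM and that of the sum 50 CPM.

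Cyp2b10 was close to the detection limit in every group on the AMLN diet and higher in chow-fed mice. DIO-MASH vehicle mice held 1 to 10 reads each, or 0.0847 to 0.841 CPM. All 8 chow mice lay above them. Chow mouse 8 held 884 reads (109 CPM), 19.8 times the next chow mouse, and the other 7 lay between 1.08 and 5.50 CPM (mean 3.05 ± 2, SD). Chow mouse 8 is the mouse with small intestine markers, and Cyp2b10 is known to be expressed in small intestine as well as liver. The difference between chow vehicle and DIO-MASH vehicle was 5.30 (SE 0.72) on the log2 scale with this mouse and 2.90 without it, and 2.54, 1.91 and 2.43 in log2 CPM within the 3 shared runs of sample numbers, which do not hold mouse 8. The share of its Cyp2b10 reads that came from intestinal tissue was not tested. Among treated groups the combination was highest (0.520 to 2.36 CPM, median 0.828), with 4 of 8 mice above the DIO-MASH vehicle range and a fitted difference of 1.62 (SE 0.76). The combination mice held 5 to 38 Cyp2b10 reads each, and the part of reads from its paralogs among them was not tested.

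Per kilobase of exon, the level of Cyp2b9 exceeded that of the other 3 genes in every AMLN-fed group. In the combination group the mean was 74.8 CPM per kb for Cyp2b9, 6.75 for Slc22a26, 3.48 for Cyp2b13 and 0.587 for Cyp2b10. In DIO-MASH vehicle mice the corresponding means were 4.46, 0.464, 0.366 and 0.192 CPM per kb. Chow vehicle had another order by median, with 2.59 CPM per kb for Cyp2b9, 2.04 for Slc22a26, 1.56 for Cyp2b10 and 0.0277 for Cyp2b13.

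Comparisons among single-drug groups were not the stated basis for choosing the Cyp2b genes, so these comparisons were tested. However, the genes were chosen with earlier results known, and levels in high-dose zalfermin entered the choice of the set. Adjusted p-values of comparisons with high-dose zalfermin are therefore not independent of that choice. Cyp2b9 and Cyp2b13 were higher at the high than at the low dose of zalfermin. Cyp2b9 rose by 3.06 on the log2 scale (SE 0.76, 8.31-fold, edgeR adjusted p = 0.0207), and 7 of 8 high-dose mice lay above all low-dose mice. Cyp2b13 rose by 2.34 (SE 0.56, edgeR adjusted p = 0.0161), also with 7 of 8 mice above. The part of Cyp2b9 reads in this Cyp2b13 difference was not tested. Cyp2b10 did not pass the threshold, with a difference of −0.35 and an interval of −1.97 to 1.27 (adjusted p = 0.91). Slc22a26, chosen with high-dose zalfermin in view, differed by 1.93 (SE 0.48), again with 7 of 8 mice above. In this comparison 1.84% of all genes tested passed the threshold.

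The size of the zalfermin dose difference varied between the runs of sample numbers. For Cyp2b9 it was 4.15, 1.93 and 1.26 in log2 CPM within the 3 runs, and for Cyp2b13 it was 3.41, 0.95 and 0.44, positive in each. High-dose zalfermin mice 1 and 2, with Cyp2b9 at 199 and 173 CPM, belong to the first run. Leaving out 1 mouse at a time gave 2.74 to 3.36 for Cyp2b9, and its adjusted p was 0.0503 without high-dose zalfermin mouse 1, 0.0538 without mouse 2 and 0.0504 without low-dose zalfermin mouse 4. For Cyp2b13 the range was 1.96 to 2.5, and the adjusted p was 0.0585 without high-dose zalfermin mouse 1.

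Between the doses of semaglutide none of the 4 genes passed the threshold. The difference of the high from the low dose was 0.28 for Cyp2b9 (interval −1.14 to 1.70), −0.32 for Cyp2b13 (−1.50 to 0.85), −0.26 for Cyp2b10 (−1.85 to 1.33) and 0.95 for Slc22a26 (−0.05 to 1.96), each with an edgeR adjusted p of 0.999. Of all genes 0% passed in this comparison, by edgeR and by DESeq2, and 549 had an unadjusted p under 0.05. Within the runs Cyp2b9 went both ways (0.68, −1.30 and −0.99). The difference between the zalfermin and semaglutide dose differences was itself tested. It was 2.78 (SE 1.02, unadjusted p = 0.00888) for Cyp2b9 and 2.67 (SE 0.81, unadjusted p = 0.00175) for Cyp2b13, and neither passed the threshold after adjustment over all genes (adjusted p = 1 for both, with 0% of all genes called and 525 at an unadjusted p under 0.05). The dose steps of the drugs differ in size, so this contrast compares the steps used and not equal increments.

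At the high doses, Cyp2b13 was higher with zalfermin than with semaglutide by 2.32 (SE 0.56, edgeR adjusted p = 0.0335), and 4 of 8 zalfermin mice lay above all semaglutide mice. Leaving out 1 mouse at a time gave differences of 1.94 to 2.88, and the call was lost in 8 of 17 such fits (adjusted p up to 0.129). Within the runs of sample numbers the difference was 3.89, 1.67 and 0.38. Cyp2b9 differed by 1.69 (interval 0.27 to 3.11, adjusted p = 0.364), and without high-dose semaglutide mouse 1 by 2.91 (adjusted p = 0.0522). Cyp2b10 differed by 0.10 (−1.58 to 1.77, adjusted p = 0.995). The description for Slc22a26 is a difference of 1.35 (SE 0.46). Here 0.447% of all genes passed.

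At the low doses none of the 4 genes passed, with 0% of all genes called by edgeR or DESeq2 and 617 at an unadjusted p under 0.05. Zalfermin differed from semaglutide by −1.09 for Cyp2b9 (−2.58 to 0.40), −0.35 for Cyp2b13 (−1.54 to 0.84), 0.19 for Cyp2b10 (−1.34 to 1.72) and 0.37 for Slc22a26 (−0.66 to 1.41), each with an edgeR adjusted p of 1. Side by side, the mean level of Cyp2b9 was 10.1 CPM with low-dose zalfermin, 21.6 CPM with low-dose semaglutide and 140 CPM with both, and that of Slc22a26 was 2.87, 2.24 and 19.9 CPM.

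**Figure D2:**
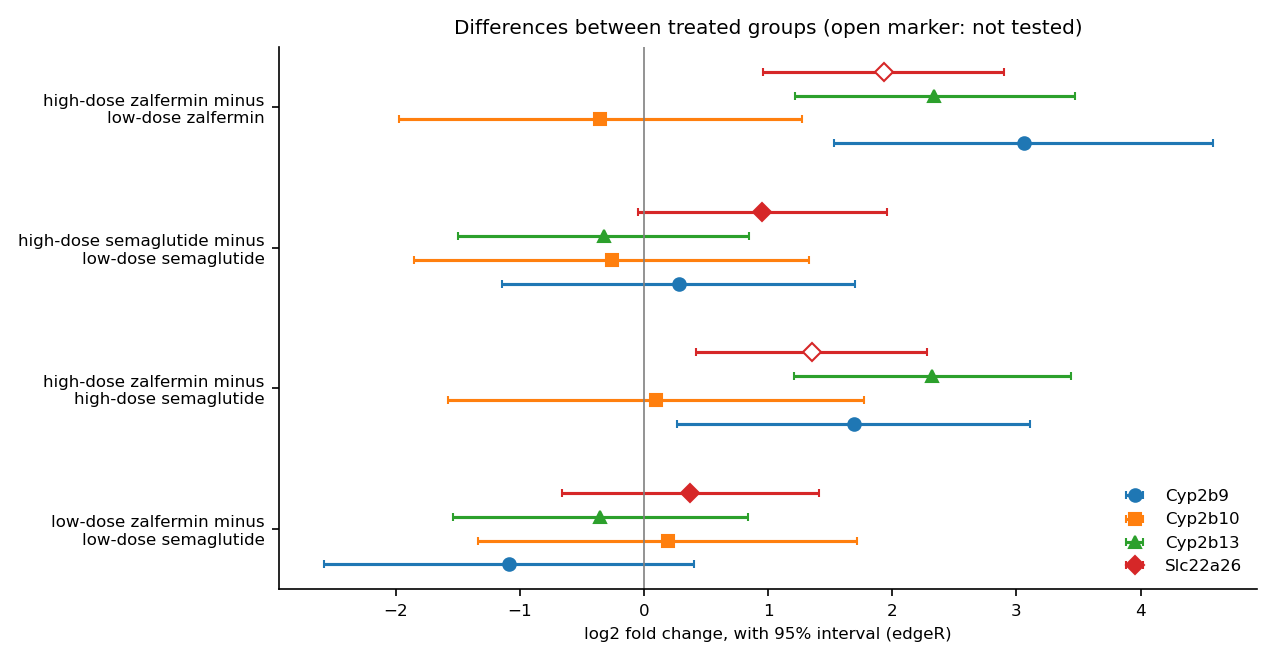
Log2 fold change of each gene between treated groups with its 95% interval, from the edgeR fit of all 56 mice. Filled markers were tested and open markers were not, because Slc22a26 was selected on high-dose zalfermin. Cyp2b9 (3.06) and Cyp2b13 (2.34) lie to the right of 0 for the zalfermin doses, and all intervals of the low-dose comparison include 0.

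Reads of Cyp2b13 were a small and changing fraction of those of its paralog. Summed over a group they came to 4.81% of Cyp2b9 reads in the combination (699 of 14544), 5.74% with high-dose zalfermin, 7.34% in DIO-MASH vehicle and 9.41% with low-dose zalfermin. In chow vehicle the fraction was 2% (12 of 600). Among mice with 50 or more Cyp2b9 reads it ran from 2.94% to 15.2% with high-dose zalfermin and from 2.14% to 6.13% in the combination. Chow mouse 8 had 283 Cyp2b9 reads and 3 Cyp2b13 reads. Of the 1802 stretches of read length in the Cyp2b9 transcript, 93 (5.16%) also occurred in Cyp2b13. The summed fraction was close to this share in the combination (4.81%) and with high-dose zalfermin (5.74%). It lay above the share in DIO-MASH vehicle and with low-dose zalfermin, and below it in chow vehicle. How much of the Cyp2b13 counts, and so of their rises and tested differences, came from Cyp2b9 reads was not tested.

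**Figure D3:**
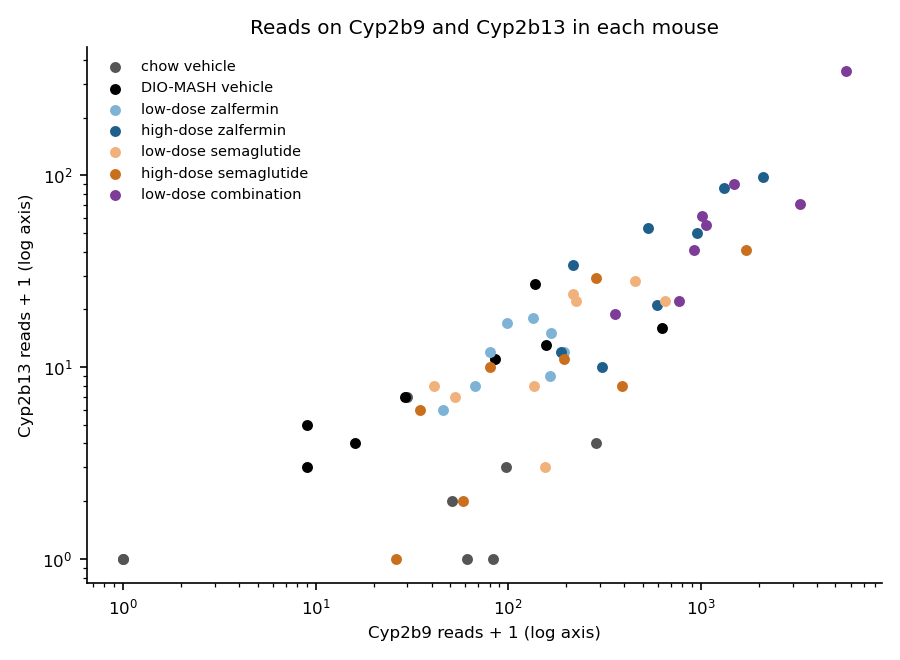
Reads counted on Cyp2b13 against reads counted on Cyp2b9, each plus 1, on logarithmic axes, with 1 point per mouse coloured by group. Combination mouse 4 is the upper right point, with 5662 Cyp2b9 and 347 Cyp2b13 reads, and chow mice held at most 6 Cyp2b13 reads.

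Among mice of the same group, Cyp2b9 varied together with Cyp2b13 and with Slc22a26. This was tested because the selection used group levels and not the spread within groups, apart from the Cyp2b10 level of chow mouse 8. That level had been noted when the genes were chosen, so the pairs with Cyp2b10 are not independent of the choice. After the group mean was taken from the log2 CPM of each mouse (n = 56), Cyp2b9 and Cyp2b13 had a Pearson r of 0.69 and a Spearman rho of 0.75 (permutation of mice within groups, unadjusted p = 1e-05 for both, the smallest that 100000 permutations can give, adjusted p = 6e-05 over 6 pairs). Within single groups their r lay between 0.50 in chow vehicle and 0.84 with high-dose zalfermin. Cyp2b9 and Slc22a26 had an r of 0.56 and a rho of 0.59 (permutation adjusted p = 0.00087 and 6e-05), with r from 0.49 to 0.88 in 6 groups and −0.16 in the combination. For Cyp2b13 and Slc22a26 the 2 measures gave different answers, with r = 0.25 (permutation adjusted p = 0.0845) and rho = 0.33 (permutation adjusted p = 0.0192). Without chow mouse 2 this r was 0.37 (permutation adjusted p = 0.0138).

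Over all 56 mice Cyp2b10 passed the threshold with Cyp2b9 and Cyp2b13 but not with Slc22a26. With Cyp2b9 its r was 0.45 (permutation adjusted p = 0.00993) and its rho 0.35, with Cyp2b13 0.32 (permutation adjusted p = 0.00993) and 0.35, and with Slc22a26 0.02 (permutation adjusted p = 0.919) and 0.03. Without the chow group its r with Cyp2b9 and Cyp2b13 no longer passed (permutation adjusted p = 0.0549 and 0.118), whereas r of Cyp2b9 with Cyp2b13 and with Slc22a26 still did. Leaving out the 2 mice farthest from the median on the first-named gene gave r = 0.73 for Cyp2b9 and Cyp2b13, 0.50 for Cyp2b9 and Slc22a26, 0.34 for Cyp2b9 and Cyp2b10, −0.16 for Cyp2b10 and Slc22a26, 0.19 for Cyp2b13 and Slc22a26 and 0.27 for Cyp2b10 and Cyp2b13, the last with a permutation adjusted p of 0.073. Cyp2b9 and Cyp2b13 share 93 stretches of 75 bases, and the part of shared reads in their common variation was not tested.

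**Figure D4:**
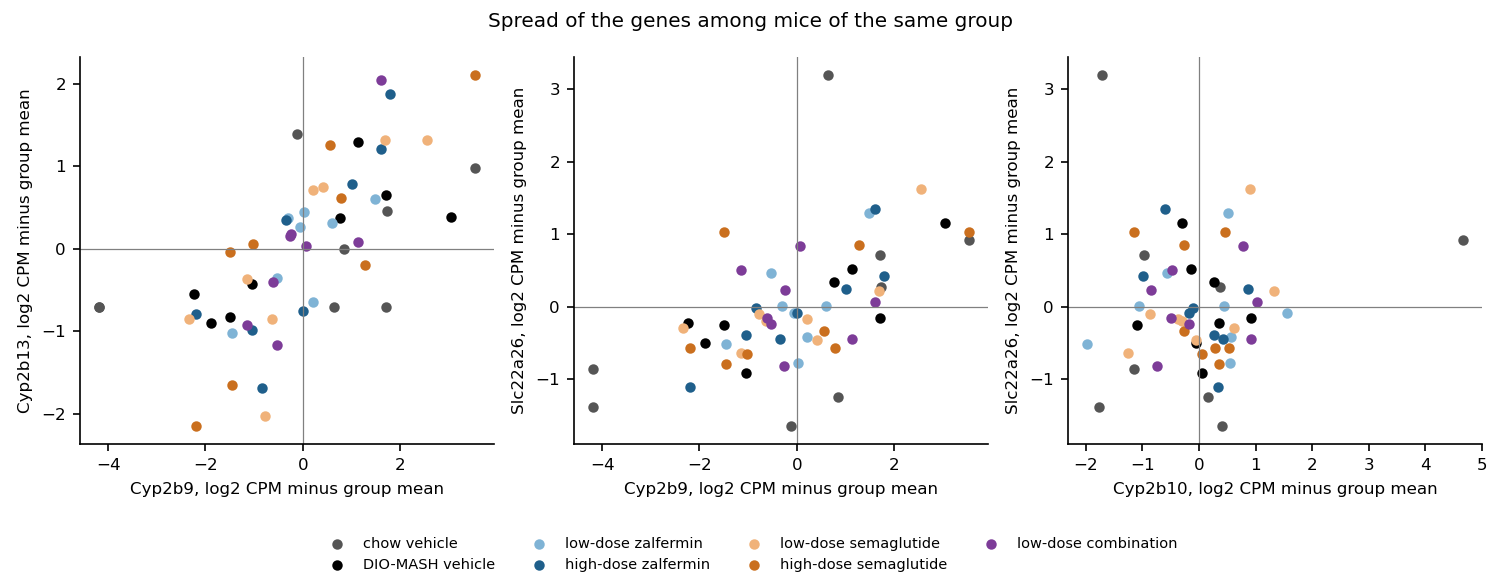
Log2 CPM of 1 gene against another after subtraction of the group mean, with 1 point per mouse coloured by group. Cyp2b9 and Cyp2b13 (r = 0.69) and Cyp2b9 and Slc22a26 (r = 0.56) rise together, while Cyp2b10 and Slc22a26 (r = 0.02) show no such trend and chow mice 8 and 2 lie apart.

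Over all 56 mice and among 11871 genes with a mean of 1 CPM or more, the genes whose levels ranked most like those of each member were listed as a description, since groups are part of this likeness. For Cyp2b9 they were Hao2, a peroxisomal hydroxyacid oxidase (Spearman rho 0.83), Slc22a29 (0.77), Nt5e, the ectonucleotidase CD73 (0.75), Hamp2, a hepcidin (0.75), and Serpinb1a (0.74). For Cyp2b13 they were Cyp2a4, a steroid hydroxylase of the same gene cluster (0.82), Acnat2 (0.81), Slc22a29 (0.78), Hao2 (0.76) and Slc2a4, the glucose transporter GLUT4 (0.73). The median of Cyp2a4 was 0.677 CPM in chow vehicle, 6.54 CPM in DIO-MASH vehicle and 90.8 CPM in the combination. Slc22a26 ranked most like Cyp2c68 (0.82), Prlr, the prolactin receptor (0.81), Serpina3m (0.81), and the ribonucleases Rnase4 and Ang (both 0.80). Likeness to Cyp2b10 was weaker, with Zbtb7b (0.69), Uroc1, the urocanase of histidine breakdown (0.66), Etnppl (0.64), Ces1b (0.64) and Gstt3 (0.63). Hao2 and Slc22a29 stood in the lists of both Cyp2b9 and Cyp2b13.

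Of 10 neighbouring Cyp2 genes in the chromosome 7 cluster, 7 were kept for the tests. Cyp2b19, Cyp2b23 and Cyp2t4 had 1, 0 and 1 reads over all mice. In the combination Cyp2a4 alone passed, with a rise of 2.76 on the log2 scale (SE 0.52, edgeR adjusted p = 9.1e-05), and with high-dose zalfermin Cyp2a5, a coumarin hydroxylase, alone passed at 1.08. Each is 14.3% of the 7 genes, against 10% and 8.54% of all genes called higher. Chow vehicle exceeded DIO-MASH vehicle for Cyp2g1 (2.80), Cyp2f2 (1.80), Cyp2a5 (1.42) and Cyp2a12 (0.39), and was lower for Cyp2a4 (−3.89) and Cyp2a22 (−1.83), leaving Cyp2s1 (0.33) outside the threshold. The chow shares were 57.1% higher and 28.6% lower, against 26.5% and 28.9% of all genes. The median log2 fold change of the 7 genes was 0.47 in the combination, where the median of all 14105 genes was −0.03.

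Of 18 other Slc22a transporters, 14 were kept. In the combination 3 rose, namely Slc22a29 (1.69), Slc22a27 (1.12) and Slc22a7 (1.03), an organic anion transporter of hepatocytes, and 2 fell, Slc22a3 (−1.07) and Slc22a15 (−0.41). High-dose zalfermin raised Slc22a29 (1.0) and Slc22a30 (0.51). In chow vehicle 6 were higher, namely Slc22a28 (2.0), Slc22a7 (1.92), Slc22a4 (1.13), Slc22a30 (1.07), Slc22a23 (0.41) and Slc22a18 (0.39), while Slc22a3 (−1.23), Slc22a27 (−1.18) and Slc22a15 (−0.45) were lower. Slc22a5, Slc22a17 and Slc22a21 passed in none of the comparisons with DIO-MASH vehicle. Shares of the 14 called higher and lower were 21.4% and 14.3% in the combination, against 10% and 10.9% of all genes. With high-dose zalfermin 14.3% were higher, against 8.54% of all genes. In chow vehicle 42.9% were higher and 21.4% lower, against 26.5% and 28.9%. Slc22a27 and Cyp2a4 also stand in the female-biased list described further on. Slc22a26 made up a minor share of its chromosome 19 group, since the 5 genes from Slc22a26 to Slc22a30 together came to 50 ± 8.39 CPM in DIO-MASH vehicle and 92.1 ± 4.89 CPM in the combination.

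Target genes of CAR and PXR, listed from general knowledge but with earlier results of these data known, did not move as 1 group with the Cyp2b genes. All 20 were kept. In the combination 8 rose (40%) and 3 fell (15%), led by Cyp2c37 (2.58), Cyp2c29 (1.86) and Cyp2c54 (1.78), all cytochrome P450 enzymes, and their median log2 fold change was −0.07. With high-dose zalfermin 8 rose and 7 fell, among them Cyp2c37 (2.38) and Cyp2c54 (2.38) upward and the glutathione transferase Gstm3 (−2.15) downward. High-dose semaglutide raised 5, with Cyp2c54 at 1.42, Cyp2c37 at 1.34 and Cyp2c29 at 1.11, and low-dose zalfermin raised Cyp2c29 (1.15). For low-dose zalfermin the count of 1 became 4 with a term for the run of mouse numbers or without low-dose semaglutide mouse 6, and 5 by DESeq2. In chow vehicle 14 were higher and 3 lower, with Cyp2c54 (3.61), Cyp2c37 (2.94) and the carboxylesterase Ces2a (2.51) in front. Cyp2b10 itself did not differ between the doses of zalfermin past the threshold.

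Chow mouse 8, the mouse with small intestine markers and a Cyp2b10 level of 109 CPM, was the highest of the 8 chow mice in 7 of the 20 target genes. The part of intestinal RNA in its levels of these genes was not tested. Cyp2c55 was at 63 CPM in this mouse and at most at 14.2 CPM in the other 7, and was picked out after its values were seen. Cyp3a11, at 7450 CPM, and Cyp2c37, at 748 CPM, were within the range of the other chow mice. The summed level of the 20 genes was 21200 CPM in mouse 8 against 15100 to 19700 CPM in the others.

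Of 11 receptors and cofactors, Nr1i3, which encodes CAR, rose by 0.68 in the combination (SE 0.17, edgeR adjusted p = 0.00273), 0.62 under zalfermin and 0.63 under semaglutide at their high doses, and was higher by 1.07 in chow vehicle. Ppargc1a, a transcriptional coactivator of fasting metabolism, rose by 0.78 in the combination and 0.79 with high-dose zalfermin. The CAR-retaining cochaperone Dnajc7 rose by 0.28 in the combination and Foxa3, a liver transcription factor, by 0.56 with high-dose zalfermin. Counts past the threshold were 3 in the combination, 5 with high-dose zalfermin, 1 with high-dose semaglutide and 7 in chow vehicle, all of them higher, with Egfr, the epidermal growth factor receptor (1.45), and Foxa3 (1.40) leading in the last. No member passed with either low dose alone.

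Female-biased liver genes rose along with Cyp2b9 and Cyp2b13 in the combination. Of 26 listed, 22 were kept, 14 of these (63.6%) rose in the combination and none fell, with a median log2 fold change of 1.29. Named genes of this and the other lists are limited to a mean level of at least 1 CPM, and here the largest rises were Cux2, a repressor of male-biased genes (2.87, SE 0.75), Cyp2a4 (2.76, SE 0.52) and the steroid hydroxylase Cyp17a1 (2.31, SE 0.37). High-dose zalfermin raised 9 (40.9%) and lowered none, with Cyp17a1 at 2.58, Cux2 at 2.25 and Nipal1, a magnesium transporter, at 1.51. High-dose semaglutide raised 2, Cyp17a1 (1.24) and Cyp39a1 (0.49), and low-dose zalfermin 1, Cyp17a1 (1.80). The semaglutide calls were close to the threshold (edgeR adjusted p = 0.0486 and 0.0493) and fell to 0 with DESeq2's size factors or with no filter beyond 1 read, and the count for low-dose zalfermin was 0 by DESeq2. Chow vehicle changed in both directions, with 8 higher (36.4%) and 5 lower (22.7%), against 26.5% and 28.9% of all genes. Its larger changes included falls of Cyp2a4 (−3.89) and the oestrogen sulfotransferase Sult1e1 (−3.72) beside a rise of Cux2 (2.17). Without chow mouse 8 the count of higher genes was 5.

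Male-biased liver genes, of which 23 of 24 were kept, fell in part in the combination. In the combination 7 fell (30.4%) and none rose, led by the fatty acid hydroxylases Cyp4a12b (−3.55, SE 0.46) and Cyp4a12a (−3.19, SE 0.40) and by Serpina1e (−2.29, SE 0.73), and the median was −0.89. With high-dose zalfermin 2 fell, Cyp4a12b (−2.04) and Cyp4a12a (−1.98), and 2 rose, including the major urinary protein gene Mup3 (1.35). These counts are 8.7% each way, near the shares of all genes (8.68% lower and 8.54% higher). Chow vehicle exceeded DIO-MASH vehicle in 14 and was lower in 1, with Hsd3b5 (6.52), a steroid dehydrogenase, Serpina1e (4.80) and Mup7 (3.83) in front. Counts of Mup genes are uncertain, because these genes are near-identical copies. The members of both lists were chosen with results of these libraries known, so their directions are no independent evidence.

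**Figure D5:**
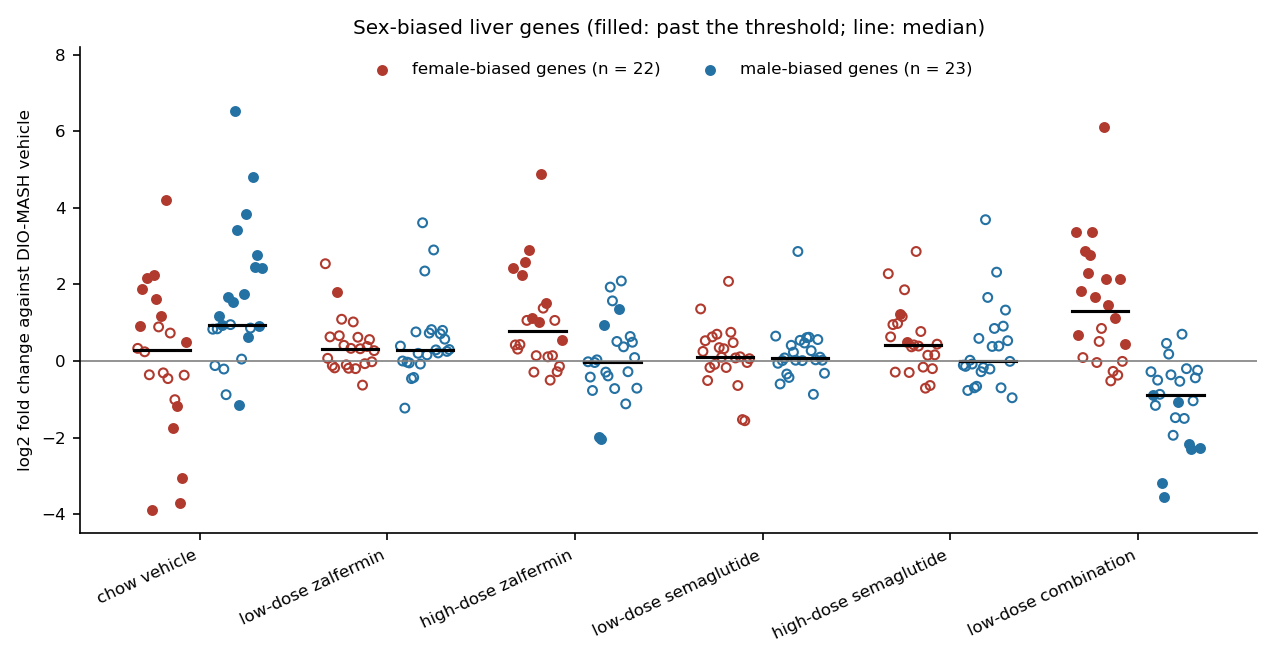
Log2 fold change against DIO-MASH vehicle of 22 female-biased and 23 male-biased liver genes in each group. Filled points passed the threshold, open points did not, and the black line is the median of a list. In the combination the female-biased median is 1.29 and the male-biased median −0.89.

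All 12 genes of growth hormone signalling were kept. In the combination 3 (25%) rose, Hnf4a, a central hepatocyte transcription factor (0.80), Igfals (0.52) and Igf1 (0.41), both growth hormone targets. High-dose zalfermin raised 4 (33.3%), including Igfals (0.66), Hnf4a (0.64) and Igf1 (0.45), and high-dose semaglutide raised Igfals (0.60) and Hnf4a (0.56). Chow vehicle was higher in 5, with Onecut1 (1.42), Igfals (1.31) and Hnf4a (1.19), and lower in 2. None passed with low-dose zalfermin or low-dose semaglutide.

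Cell type markers also shifted, to different extents in the combination and high-dose zalfermin groups. Hepatocyte markers were present throughout, their 7 genes summing to 62600 to 85100 CPM in DIO-MASH vehicle, 88900 to 138000 CPM in the combination, 85700 to 139000 CPM with high-dose zalfermin and 153000 to 240000 CPM in chow vehicle. Of the 7, 6 rose in the combination and all 7 with high-dose zalfermin. Stellate cell markers summed to 581 to 781 CPM in DIO-MASH vehicle and 327 to 562 CPM in the combination, where 5 of 6 fell. Recruited macrophage markers summed to 248 to 650 CPM in DIO-MASH vehicle and 53.4 to 338 CPM in the combination, where 2 of 5 fell, and Kupffer cell markers to 113 to 402 CPM and 206 to 509 CPM, where 3 of 5 rose. Of the sinusoidal endothelial, B cell and red blood cell markers 1 each fell in the combination, and none of the cholangiocyte or T cell markers passed. With high-dose zalfermin 1 of 6 stellate cell and 2 of 5 recruited macrophage markers fell, and 1 of 5 Kupffer cell markers rose. No marker of the sinusoidal endothelial, B cell, red blood cell, cholangiocyte or T cell lists passed there. The 1 adipocyte marker kept fell in the combination and with high-dose zalfermin, and the 1 exocrine pancreas marker kept passed in no group. In whole liver, fewer cells of a type and less RNA per cell cannot be told apart, and the part of these shifts in the levels of the Cyp2b genes and Slc22a26 was not tested.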

How the data were processed

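Liver RNA of 56 mice was sequenced as single libraries. Per the labels and the study's methods, the authors made strand-specific mRNA libraries and deposited 1 table of raw gene counts. The submitters' processing notes name Trim Galore 0.6.4, Salmon 1.9.0 and GRCm38, whereas the study's methods name the STAR aligner, and how reads shared by paralogs were counted is not given in the sources used here. The 56 columns were assigned to groups of 8 by the labels, and no columns were identical. Genes for which at least 3 mice had at least 5 reads (14105 of 21935) entered 1 edgeR 4.0.16 quasi-likelihood fit of all 7 groups (R 4.3.3, TMM scaling), with p-values adjusted by Benjamini-Hochberg over all genes and a threshold of 0.05. Intervals are at 95% from the fit. DESeq2 1.42.0, other filters and scaling, a term for the run of sample numbers, summed paralogs and leaving out single mice were alternatives. Differences within runs are means of log2 CPM with a prior count of 2. Total counts of 5228187 to 20885786 reads limit the precision of low genes. Intervals of the fit include the spread between animals, and floors for counts of 0 (3 reads) cover counting error only.

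The members and the gene lists were chosen with earlier results of these data known. Named genes are the 4 members, every tested gene of the Cyp2 cluster and the Slc22a family, up to 3 genes past the threshold with the largest change and a mean of 1 CPM or more from each other list and comparison, and the 5 genes most like each member. A gene that this rule would name is not reported here. Lists of cell type markers (hepatocyte, stellate, Kupffer, recruited macrophage, sinusoidal endothelial, cholangiocyte, T cell, B cell, red blood cell, small intestine, exocrine pancreas and adipocyte) served as checks. Within-group correlations used 100000 permutations of mice within groups. Promoters and transcripts came from RefSeq (GRCm38.p6) and GENCODE M21, and were compared with Biopython 1.88 and by shared stretches of 75 bases. Each animal gave 1 library, so p-values measure the spread between animals. Scripts were tested on simulated data.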

Additional observations from a re-analysis of the deposited data

Results flagged for a closer look

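Of 28 sets of 8 mice (4 genes in 7 groups), 3 held a mouse whose distance to its nearest neighbour, divided by the range of the group, passed Dixon's 95% critical value of 0.526. Chance alone gives about 1 such set in 20. Cyp2b10 in chow mouse 8 stood at 6.77 log2 CPM (109 CPM), with a ratio of 0.661. Cyp2b13 in combination mouse 4 stood at 4.44 log2 CPM (21.5 CPM), with a ratio of 0.58. Slc22a26 in low-dose semaglutide mouse 6 stood at 2.70 log2 CPM (6.33 CPM), with a ratio of 0.625.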

How the results depend on the processing

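No paired analysis was possible because the labels give no replicate number shared between groups. A term for the run of mouse numbers was fitted instead. Of the tests of the 4 genes between treated groups, those under DESeq2's test, DESeq2's size factors, both other filters and a term for the run of sample numbers kept their direction where called and their side of the threshold. Cyp2b13 between the high doses was 2.31 (adjusted p = 0.0887) with only the 2 groups fitted and 1.70 (0.377) with the reads of close paralogs summed. Cyp2b10 between the zalfermin doses became 2.94 (0.0315) in that sum, which is mostly Cyp2b9 reads by construction. Leaving out 1 mouse at a time gave 2.74 to 3.36 for Cyp2b9 and 1.96 to 2.5 for Cyp2b13 between the zalfermin doses, and 1.94 to 2.88 for Cyp2b13 between the high doses (lost without high-dose zalfermin mice 1, 2 or 6 or high-dose semaglutide mice 2, 4, 5, 6 or 7). Within-group r fell to 0.27 (Cyp2b10 and Cyp2b13) without the 2 farthest mice. Without the chow group it was 0.28 (Cyp2b9 and Cyp2b10), 0.24 (Cyp2b10 and Cyp2b13) and, past the threshold, 0.44 (Cyp2b13 and Slc22a26), the last ranging from 0.20 to 0.37 with chow mouse 2, chow mouse 8 or low-dose semaglutide mouse 6 left out. These correlation settings without chow mice and the fit without chow mouse 8 were chosen after seeing the data.

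Counts of genes against DIO-MASH vehicle that moved by more than 1.5 times were few and small, and the cause was not tested. Female-biased genes higher with high-dose semaglutide numbered 0 with DESeq2's size factors or with no filter beyond 1 read, and 1 with the stricter filter or the run term. With the run term, CAR and PXR targets higher with low-dose zalfermin were 4, male-biased genes lower in chow 2, female-biased genes lower in the combination 1, and Cyp2 neighbours higher with high-dose zalfermin 2. With only the 2 groups fitted, male-biased genes were 2 lower in chow and 2 higher in the combination, female-biased genes 1 lower in the combination, and for high-dose semaglutide CAR and PXR targets were 2 higher and 1 lower, cofactors 0 and growth hormone genes 1 higher. By DESeq2, low-dose zalfermin had 5 CAR and PXR targets, 0 female-biased, 2 male-biased and 1 growth hormone genes higher, low-dose semaglutide 3 targets higher, the combination 2 Cyp2 neighbours higher, high-dose zalfermin 2 Cyp2 neighbours higher and 4 male-biased genes lower, and high-dose semaglutide 1 Cyp2 neighbour and 2 cofactors higher. Without low-dose semaglutide mouse 6, male-biased genes lower in chow were 2, CAR and PXR targets higher with low-dose zalfermin 4, Cyp2 neighbours higher with high-dose zalfermin 2 and cofactors higher with high-dose semaglutide 2. Without chow mouse 8, 5 female-biased genes were higher in chow. Depth limits Cyp2b10 and Cyp2b13, which held few reads in most mice.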
